A study of Mus musculus with 9 samples.

Results

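The 83 interleukin and interleukin receptor genes of the mouse were followed through retinas with laser-induced retinal vein occlusion (RVO). They are all symbols of the count table that start with Il and a digit, without symbols marked as pseudogenes, among 48587 gene names. A gene was called detected if it had 10 or more counts in at least 3 of the 9 samples. By this measure 46 of the 83 genes were detected, while 35.3% of all names were. The sets are unlike: all of the 83 but Il1bos are protein-coding, while the names of the whole table were not limited by gene type. The values therefore do not show that interleukin genes are detected more often than other protein-coding genes.

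RNA was sequenced from retinas of C57BL/6J mice at 12 weeks of age, and each sample was a pool of 6 retinas from 6 mice, so n = 3 per group counts pools. In RVO eyes, the veins were closed by laser (50 mW, spots of 50 µm, 2.5 s) after i.p. injection of the photosensitizer eosin Y (200 mg/kg) under ketamine and xylazine, and the retinas were taken at day 2. Control laser-treated eyes were the fellow eyes of these mice and received the same scheme between the large vessels, so they share the dye, the anesthesia, the laser and the day with RVO eyes. Untreated eyes came from other mice of the same strain and age without laser treatment. No eosin Y injection is given for these mice, and anesthesia is not stated. Differences from untreated eyes can therefore also hold effects of the dye, the anesthesia and the mice, which cannot be told apart from those of the laser. The comparison of RVO eyes with control laser-treated eyes addresses what occlusion adds to the laser lesion.

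Interleukins are secreted signals between cells of the immune system and their neighbours, and each acts through a receptor built of specific and shared chains. The IL-1 family signals through paired TIR-domain receptors and MyD88 to NF-kB, and it is held in check by a receptor antagonist and by a decoy receptor. Most other interleukins act through receptors bound to JAK kinases and STAT factors, with GP130 (Il6st), the common gamma chain (Il2rg) or the common beta chain (Csf2rb) as the shared part. In the retina, glia, microglia and invading leukocytes are known sources and targets of these signals.

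The samples held 12377572 to 28993921 counts, with the lowest totals in the untreated group (12377572 to 15245869). Levels are given as CPM, counts relative to 1000000 of the library total after TMM scaling. The 5 lens markers were higher in every laser-treated pool: they summed to 2 to 20.5 CPM in untreated, 190.5 to 2613 in control and 167.9 to 4890 in RVO pools, and all that could be tested were called higher, 3 in RVO and 4 in control eyes. RVO replicate 2 stood apart with 4890 CPM, against 167.9 and 429.8 in the other RVO pools, and its summed neutrophil markers were the lowest of the group. Control replicate 1 also stood apart, with 2613 CPM against 335.7 and 190.5 in the other control pools. Its summed neutrophil markers, at 23.4 CPM, were not the lowest of the control group. The sum of 10 neutrophil markers was 0.547 to 1.18 CPM in untreated, 8.41 to 24.8 in control and 46.9 to 104.5 in RVO pools. In untreated pools 6 of these 10 were at 0 counts, Cxcr2 and Ly6g among them. The sum was carried by S100a8, S100a9, Csf3r and Cxcr2, while Ly6g had 5, 1 and 0 counts in RVO and 0, 0 and 1 in control pools and Mpo, Elane and Ngp had at most 5 in any pool. Of the neutrophil markers 5 could be tested in RVO and 4 in control eyes, and all of these were higher. Markers at or near 0 counts in untreated pools, the lens marker Mip included, can be tested only if they are higher. For them the direction of these calls was fixed in advance. The 9 monocyte and macrophage markers summed to 14.9 to 19.6, 49.8 to 69.9 and 116.7 to 140.0 CPM in the same order, with Ly6c2 at 0 in untreated pools. Lyz2, Cd68 and Itgam carried this sum, with means of 55.8, 33.5 and 22.8 CPM in RVO pools. Ccr2 and Ly6c2 had means of 3.74 and 1.02 CPM there. Of the 9 markers 7 were called higher in RVO eyes, while Adgre1 and Ms4a7 did not pass. The 6 microglia markers went the other way, with 96.4 to 147.4, 49.4 to 57.9 and 31.0 to 51.5 CPM, and the 10 retinal neuron markers fell from 71230 to 72930 CPM in untreated pools to 35860 to 39990 in RVO pools. In such bulk samples, more or fewer cells of a type and more or less RNA per cell cannot be told apart, and the part of these shifts in the results that follow was not tested. The p-values measure the spread between pools.

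Of the 37 genes that were not detected, 10 had no count in any sample: Il3, Il9, Il13, Il17a, Il17b, Il31, Il1f5, Il1f10, Il11ra2 and Il22ra1. A total of 21 reached at most 1 to 9 counts. They include Il10, which dampens inflammation (largest count 5), Il12b, the subunit shared by IL-12 and IL-23 (4), Il17f (4), Il2, the T cell growth factor (1), Il5, the eosinophil factor (2), Il7 (7) and the IL-18 receptor chain Il18r1 (3). The other genes of this kind were Il22ra2, Il1f8, Il20 and Il23r with 1, Il5ra and Il1f6 with 2, Il24 and Il25 with 3, Il12rb1 with 4, Il1bos with 5, Il31ra with 6, Il19 and Il4i1 with 7, and Il17c with 8. The last 6 had 10 or more counts in 1 or 2 samples, namely Il12rb2 (largest count 16), Il2ra, Il2rb, Il13ra2 and Il23a (11 each) and Il27ra (10). Of the cytokines best known from T helper cells, Il4, Il21 and Il22 were detected. The summed T cell markers were also low, with 0.5 to 1.27 CPM over all 9 pools.

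The detection limit ran through a small set of genes. Il6, Il22 and Il7r passed with exactly 3 samples at 10 or more counts. Counts of Il12rb2, just outside, were 16, 3 and 3 in RVO, 10, 8 and 8 in control and 2, 9 and 2 in untreated pools. Depth plays into this count, since 40 genes were detected when all libraries were thinned to the smallest total. Il22, with 4 to 11 counts per sample, did not pass the filter of any test.

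By level, 2 genes carried most of the interleukin transcripts. The 83 genes together gave 347.5 to 355.2 CPM in untreated, 472.4 to 578.6 in control and 634.0 to 701.7 in RVO pools, without overlap between the groups. Il6st, which encodes GP130, made up 39.9 to 49.1% of this sum, and Il33, a nuclear alarmin of the IL-1 family, 11.3 to 23.9%. Scaled to exonic length, Il33 stood first in every group with 28.4 ± 0.94 CPM per kb (SD, n = 3) in untreated, 31.7 ± 3.20 in control and 34.5 ± 6.28 in RVO pools. Il6st came next with 12.8 ± 0.36, 21.0 ± 3.20 and 28.7 ± 2.06 CPM per kb, and in RVO pools this distance to Il33 was within 1 SD of Il33. The third place changed hands: it went to Il18, a caspase-activated cytokine (5.48 ± 0.52 CPM per kb), in untreated eyes, to Il34, a growth factor for microglia and macrophages (5.30 ± 0.25), in control eyes and to Il4ra, the IL-4 receptor chain (4.95 ± 0.35), in RVO eyes. In control eyes Il18, at 5.21 ± 0.35, did not differ from Il34 beyond the spread, and in RVO eyes Il17rc, at 4.79 ± 0.30, did not differ from Il4ra.

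Against untreated eyes, interleukin genes rose more often than they fell. In RVO eyes, 41 of the genes could be tested, and 19 were higher and 7 lower (edgeR, Benjamini-Hochberg adjusted p under 0.01), which is 46.3% and 17.1%, while 27.4% of all tested genes were higher and 24.6% lower. In control laser-treated eyes, 17 of 39 were higher and 2 lower, or 43.6% and 5.13%, against 27.2% and 25.2% of all genes. The median log2 fold change was 1.01 in RVO and 0.42 in control eyes, with medians of 0.01 over all genes in both. It was the same with genes at 0 in untreated pools set to their lower bound. These were 2 genes in RVO and 1 in control eyes, with bounds above the medians, so the medians could not move. A gene silent in untreated eyes can pass the filter only by being higher, so these shares describe tested genes and not all 83. Among the 39 genes tested in both comparisons, which share the untreated pools, 15 were higher in both and 2 lower in both, 3 were higher and 5 lower with a pass in RVO eyes and not in control eyes, 2 were higher with a pass in control eyes and not in RVO eyes, and 12 passed in neither. Whether a gene differed between the laser treatments is given by the direct comparison further on. The shares over all genes given here also stand beside the counts of the single families that follow.

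**Figure D1:**
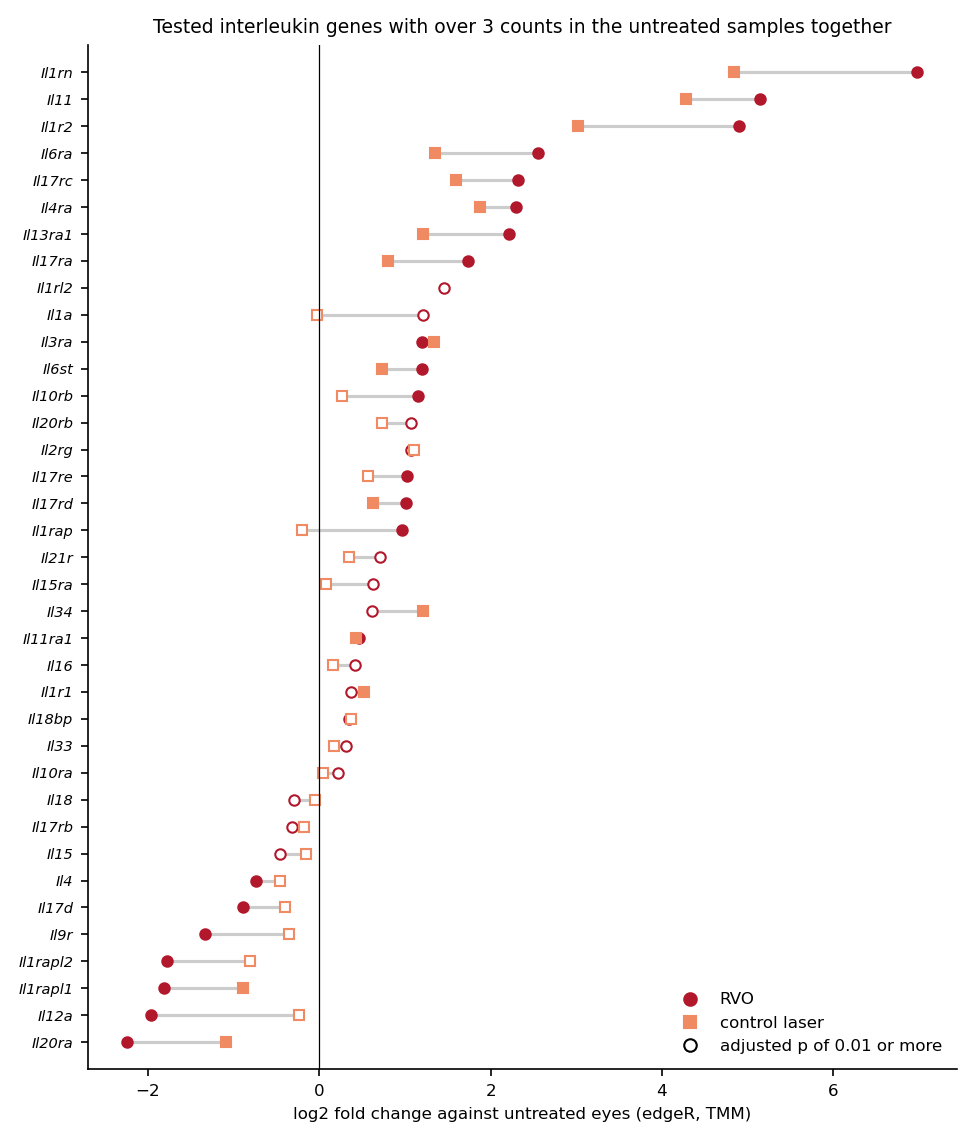
Log2 fold change (x axis) of each tested interleukin gene with over 3 counts in the untreated samples together (y axis, sorted) in RVO eyes (circles) and control laser-treated eyes (squares) against untreated eyes. Filled symbols have an adjusted p under 0.01, and grey lines join the 2 values of a gene. Il1rn stands at the top with 6.98 and 4.85, and Il20ra at the bottom with -2.24 and -1.09.

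The ligands of the IL-1 family held genes with large increases and genes that did not pass. Of 10 listed genes 6 were detected, and 3 of 6 tested rose in RVO eyes (Il1b, Il1rn, Il1f9) and 2 of 5 in control eyes (Il1b, Il1rn). IL-1 beta (Il1b, chr2:129364570-129371139, minus strand, GRCm38), the main secreted form of IL-1, was at 9.33, 4.50 and 11.2 CPM in the RVO pools, 1.27, 4.35 and 1.76 in control pools and 0, 0.156 and 0.0714 in untreated pools. All laser-treated pools were above all untreated pools, and the lowest RVO pool, replicate 2, was just above the highest control pool. With only 3 counts in the untreated group, Il1b was higher by a count ratio of 106 in RVO eyes (95% counting interval 36.2 to 516, adjusted p = 7.6e-05, edgeR) and of 29.9 in control eyes (10.04 to 146, adjusted p = 0.00016).

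The IL-1 receptor antagonist gene Il1rn (chr2:24336853-24351494, plus strand), whose product occupies the IL-1 receptor without a signal, followed with 21.5, 8.54 and 21.4 CPM in RVO pools, 5.43, 4.35 and 2.18 in control pools and 0.182, 0.0781 and 0.143 in untreated pools. The 3 groups did not overlap. The log2 fold change was 6.98 ± 0.60 (SE, adjusted p = 4.3e-05) in RVO eyes and 4.85 ± 0.54 (adjusted p = 6.2e-06) in control eyes. Il1f9 encodes IL-36 gamma, an IL-1 relative of epithelia and myeloid cells, and lies near Il1rn (chr2:24186476-24193568). It had 2.45, 0.977 and 1.98 CPM in RVO pools, 0.724, 0.606 and 0.126 in control pools and no count in untreated pools. It was at least 23.5-fold higher in RVO eyes than in untreated eyes, taking 3 counts over the untreated group as the floor (adjusted p = 0.0011), and at least 5.94-fold higher in control eyes, where it was not tested.

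Il33, Il18 and Il1a passed in neither comparison with untreated eyes. Il33 was at 78.7, 112 and 108 CPM in RVO, 81.7, 100.1 and 92.2 in control and 84.6, 82.0 and 79.1 in untreated pools, with overlapping ranges (log2 fold change 0.31 ± 0.13 in RVO eyes, adjusted p = 0.059). The summed markers of Müller glia, a cell type known for IL-33, were 3710 to 3961 CPM in untreated, 2009 to 2660 in control and 1296 to 1809 in RVO pools. Glul carried this sum, and the other 5 markers gave 1205 to 1284, 1065 to 1141 and 716.3 to 1061 CPM. Of the 6 markers, 3 were lower in RVO eyes, and 4 were lower and 1, Kcnj10, higher in control eyes. Il18 gave -0.30 ± 0.17 in RVO eyes (adjusted p = 0.16). Il1a, the membrane-bound IL-1, had a mean of 1.496 ± 0.49 CPM (SD) in RVO, 0.648 ± 0.20 in control and 0.656 ± 0.12 in untreated pools, and its log2 fold change of 1.21 in RVO eyes had an adjusted p of 0.016.

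The ratio of antagonist to ligand was compared within samples, since library scaling cancels in it. The log2 ratio of Il1rn to Il1b counts (1 added to each) was 1.20, 0.917 and 0.928 in RVO pools, 2.06, 0 and 0.302 in control pools and 1.58, -0.585 and 0.585 in untreated pools. The RVO pools lay close together inside the wide range of the other groups. RVO pools differed by 0.488 from untreated (p = 0.7) and by 0.228 from control pools (p = 0.8) in a two-sided exact permutation test, which cannot go below 0.1 with 3 against 3 pools. The untreated ratios rest on 2, 1 and 2 counts of Il1rn and 0, 2 and 1 of Il1b, so they depend on the added count: with 5 added, the difference from untreated pools was 0.839 and its exact p the smallest possible, 0.1, and with 0.5 added it was 0.244 (p = 0.7). A shift of the ratio could not be shown or bounded at this depth.

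The bases before the start site of 4 genes are shown, because Il1b, Il1rn, Il11 and Il21 all gained over 3 on the log2 scale in both laser-treated groups and have a RefSeq start within 10 bases of the GENCODE gene start. Each run holds the 250 bases before the start (RefSeq, GRCm38.p6), 5′ to 3′ on the strand of the gene, and capitals mark matches to AP-1 (TGANTCA), GAS (TTCNNNGAA, bound by STAT factors), C/EBP (TTNNGNAA) or NF-kB motifs on either strand, overlaps allowed.
Il1b, chr2:129371140-129371389, minus strand: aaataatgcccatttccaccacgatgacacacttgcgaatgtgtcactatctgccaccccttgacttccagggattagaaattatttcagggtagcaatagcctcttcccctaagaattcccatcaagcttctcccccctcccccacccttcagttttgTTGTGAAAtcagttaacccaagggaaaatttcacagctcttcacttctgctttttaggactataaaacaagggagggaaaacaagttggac
Il1rn, chr2:24336610-24336859, plus strand: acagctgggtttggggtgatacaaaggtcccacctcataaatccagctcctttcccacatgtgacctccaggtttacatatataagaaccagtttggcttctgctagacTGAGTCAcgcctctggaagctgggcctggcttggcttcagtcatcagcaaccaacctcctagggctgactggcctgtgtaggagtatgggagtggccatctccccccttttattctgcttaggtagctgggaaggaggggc
Il11, chr7:4782858-4783107, minus strand: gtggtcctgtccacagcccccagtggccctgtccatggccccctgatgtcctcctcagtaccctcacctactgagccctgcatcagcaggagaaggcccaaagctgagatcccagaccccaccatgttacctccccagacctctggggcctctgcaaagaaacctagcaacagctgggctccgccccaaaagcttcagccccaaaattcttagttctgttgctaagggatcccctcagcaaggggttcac
Il21, chr3:37232637-37232886, minus strand: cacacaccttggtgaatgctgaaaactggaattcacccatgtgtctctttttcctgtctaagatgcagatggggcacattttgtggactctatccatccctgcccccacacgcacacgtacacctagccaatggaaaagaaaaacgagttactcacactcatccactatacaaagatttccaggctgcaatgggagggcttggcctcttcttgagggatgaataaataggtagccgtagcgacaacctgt

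In these windows Il1b held 1 C/EBP match (TTGTGAAA) that begins 91 bases before the start, and Il1rn held 1 AP-1 match (TGAGTCA) that begins 141 bases before it. Il11 and Il21 held none of these letters within 250 bases. Over all 27025 RefSeq windows of this length, 6.9% held an AP-1, 7.1% a GAS, 37.0% a C/EBP and 3.8% an NF-kB match. Among the 40 detected interleukin genes with a window, the shares were 15, 7.5, 45.0 and 2.5%. RefSeq lists 3 start sites for Il1rn and 2 for Il11, and the window at the start nearest the GENCODE gene start was taken. Which start is used in these retinas was not tested. The matches describe the sequence and say nothing on binding.

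**Figure D2:**
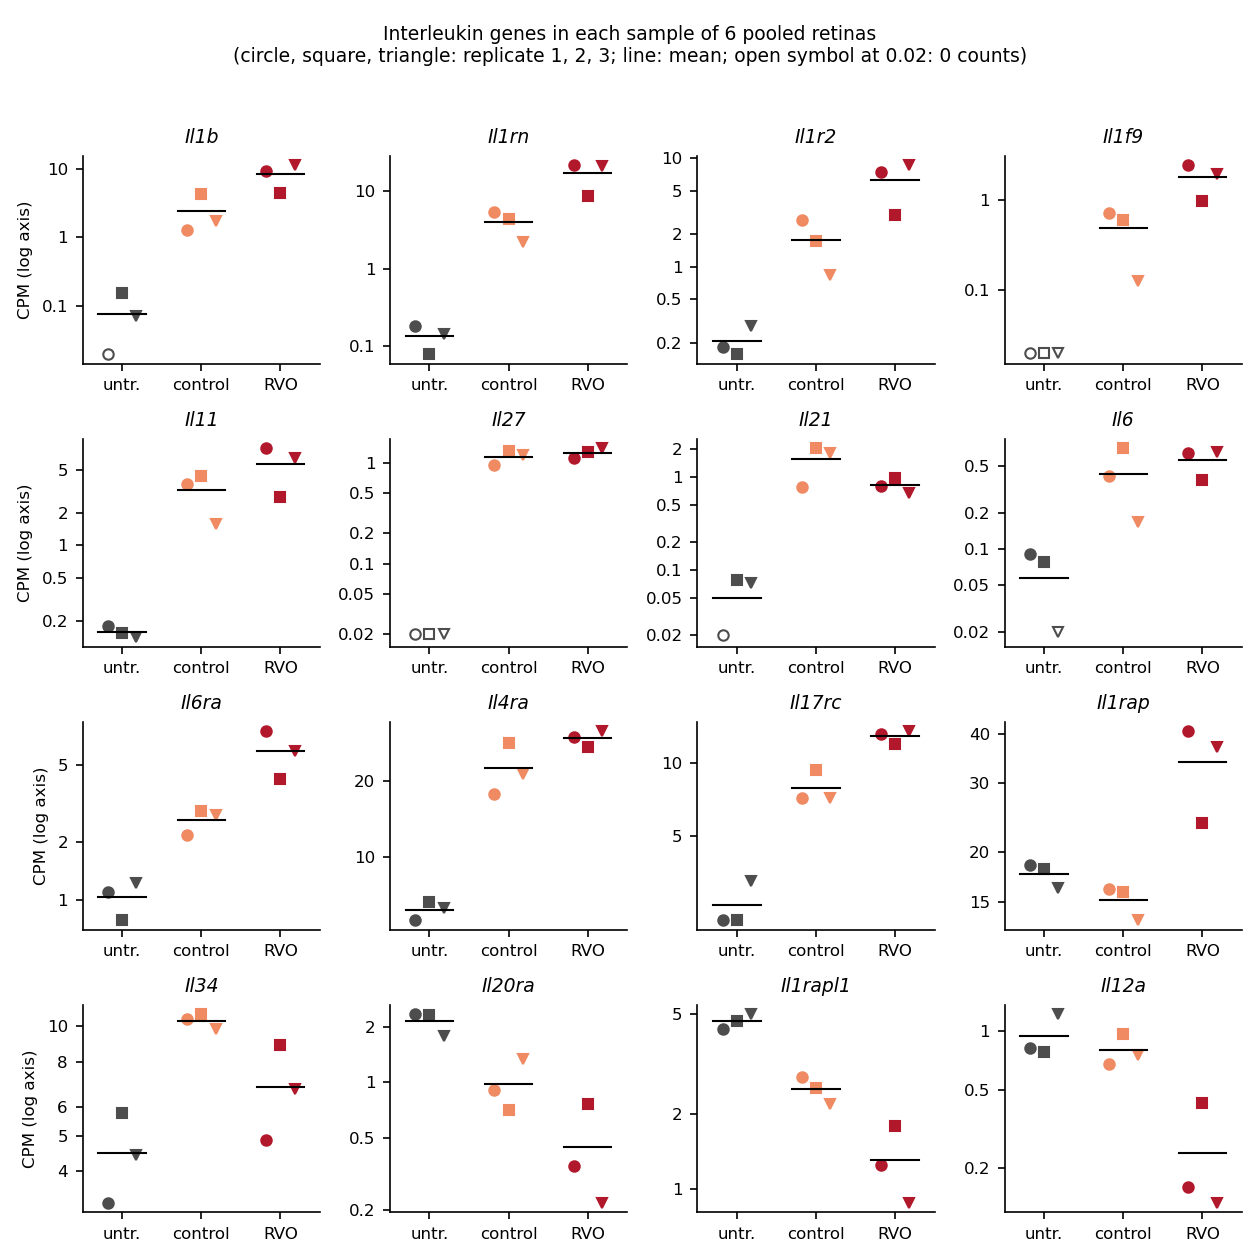
CPM (log axis) of 16 interleukin genes in each pool of untreated, control laser-treated and RVO eyes, with replicates 1, 2 and 3 as circle, square and triangle, the mean as a line and pools without counts as open symbols drawn at 0.02. Il1b, Il1rn, Il1r2 and Il6ra step up from untreated to control to RVO pools, Il34 is highest in control pools, and Il12a is lowest in RVO pools, with a mean of 0.239 CPM.

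The receptors of the IL-1 family split into genes that rose and genes that fell. Of 10 listed genes 9 were detected. In RVO eyes 2 of 7 tested genes rose (Il1r2, Il1rap) and 2 fell (Il1rapl1, Il1rapl2), and in control eyes 2 of 6 rose (Il1r2, Il1r1) and 1 fell (Il1rapl1). The decoy receptor gene Il1r2 (chr1:40074079-40125231), which binds IL-1 without a signal, was at 7.45, 3.02 and 8.57 CPM in RVO, 2.71, 1.72 and 0.837 in control and 0.182, 0.156 and 0.286 in untreated pools. The groups did not overlap. On the log2 scale it was higher by 4.90 ± 0.58 in RVO eyes (adjusted p = 0.00018) and 3.02 ± 0.57 in control eyes (adjusted p = 0.00047). The signalling receptor Il1r1 lies next to it (chr1:40225080-40317257) and moved little, with 11.0 ± 3.13 CPM in RVO, 12.3 ± 1.99 in control and 8.66 ± 1.56 in untreated pools (log2 fold change 0.53 ± 0.15 in control eyes, adjusted p = 0.0085, and 0.37 ± 0.23 in RVO eyes, adjusted p = 0.18). The same chromosomal cluster holds Il1rl2, Il1rl1, Il18r1 and Il18rap up to position 40551705. Of these, Il18rap, the accessory chain of the IL-18 receptor, had 0.956, 0.510 and 1.06 CPM in RVO pools, 0.497, 0.606 and 0.544 in control pools and no count in untreated pools, which is at least 10.7-fold higher in RVO eyes and at least 6.90-fold higher in control eyes, with 3 counts over the untreated group as the floor. It did not pass the filter of these tests. Il1rl1, the IL-33 receptor, had 41 counts in the RVO, 58 in the control and 4 in the untreated group. Il1rl2, the IL-36 receptor, gave 1.46 ± 0.48 in RVO eyes (adjusted p = 0.025), and Il18bp, the soluble binder of IL-18, 0.35 ± 0.17 (adjusted p = 0.11).

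Il1rap encodes the accessory chain that IL-1, IL-33 and IL-36 receptors need for a signal (chr16:26581704-26730117). It was singled out after its values were seen. Its level was 40.6, 23.8 and 37.1 CPM in RVO pools, 16.2, 15.9 and 13.5 in control pools and 18.6, 18.1 and 16.3 in untreated pools. All RVO pools lay above and all control pools below the untreated pools, an order that 1 of 46 detected interleukin genes and 0.508% of all detected genes showed. The log2 fold change was 0.97 ± 0.19 in RVO eyes (adjusted p = 0.0025) and -0.20 ± 0.10 in control eyes (adjusted p = 0.10).

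The neuronal members Il1rapl1 and Il1rapl2, of which the first is a known organiser of synapses, were lower in laser-treated than in untreated pools. Il1rapl1 was at 1.24, 1.78 and 0.879 CPM in RVO, 2.80, 2.53 and 2.18 in control and 4.36, 4.69 and 5.00 in untreated pools. It fell by 1.81 in RVO eyes and by 0.89 in control eyes on the log2 scale (adjusted p = 0.00049 and 0.00062). Il1rapl2 was at 0.828, 1.36 and 0.396 CPM in RVO, 2.13, 1.52 and 1.46 in control and 4.36, 2.50 and 2.36 in untreated pools, and fell by 1.78 in RVO eyes (adjusted p = 0.0062). For both genes the groups were ordered without overlap, in the same order as the summed retinal neuron markers.

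The IL-6 and IL-12 families showed ligand and receptor changes. Of 7 ligand genes 4 were detected, and 2 of 3 tested rose in both laser-treated groups (Il11, Il27) and 1 fell in RVO eyes (Il12a). Il11 (chr7:4772373-4782859), a GP130 cytokine of stromal cells, was at 7.87, 2.80 and 6.33 CPM in RVO, 3.71, 4.35 and 1.59 in control and 0.182, 0.156 and 0.143 in untreated pools. RVO and control pools overlapped, both far above the untreated pools. The log2 fold changes were 5.14 ± 0.58 in RVO eyes (adjusted p = 0.00015) and 4.28 ± 0.55 in control eyes (adjusted p = 2.1e-05). Il27, the p28 subunit of IL-27, had 1.11, 1.27 and 1.41 CPM in RVO pools, 0.950, 1.31 and 1.21 in control pools and no count in untreated pools. It was at least 15.7-fold higher in RVO eyes (adjusted p = 0.00026) and at least 14.6-fold higher in control eyes (adjusted p = 2.5e-05) than in untreated eyes, with the same floor. An antisense neighbour, Apobr, covers 10.1% of the exonic bases of Il27.

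Il6, the acute-phase cytokine named by the study, stayed near the limit. It had 20, 9 and 15 counts in RVO pools, 9, 14 and 4 in control pools and 1, 1 and 0 in untreated pools, which corresponds to 0.637, 0.382 and 0.660, then 0.407, 0.707 and 0.167, then 0.0908, 0.0781 and 0 CPM. RVO and control pools overlapped and both lay above the untreated pools. The count ratio to the 2 untreated counts was 10.7 in RVO (95% counting interval 2.79 to 91.2) and 7.76 in control eyes (1.95 to 67.3), and the filter left Il6 out of both tests. Il12a, the p35 subunit of IL-12, was at 0.159, 0.425 and 0.132 CPM in RVO, 0.678, 0.960 and 0.753 in control and 0.817, 0.781 and 1.21 in untreated pools. The RVO pools lay below all others, and Il12a fell by 1.96 on the log2 scale in RVO eyes (adjusted p = 0.0059), while control eyes gave -0.24 ± 0.31 (adjusted p = 0.52).

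All 3 detected receptor genes of this group rose in both laser-treated groups. Il6ra, the IL-6 binding chain, was at 7.55, 4.25 and 5.98 CPM in RVO, 2.17, 2.88 and 2.76 in control and 1.09, 0.781 and 1.21 in untreated pools. Il6st (chr13:112464070-112510086) was at 342, 296 and 319 CPM in RVO, 221, 273 and 204 in control and 142, 147 and 139 in untreated pools. Both genes were ordered from untreated to control to RVO pools without overlap. The log2 fold changes of Il6ra were 2.56 ± 0.30 and 1.35 ± 0.26, and those of Il6st 1.20 ± 0.08 and 0.73 ± 0.09, in RVO and control eyes. The adjusted p-values of Il6st were 1.2e-05 and 1.6e-05, and those of Il6ra 0.00018 and 0.00051. Il11ra1, the IL-11 binding chain, rose by 0.47 ± 0.10 and 0.42 ± 0.08. Its near-identical copy Il11ra2 was at 0 counts, and reads that match both copies cannot be assigned.

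In the group of IL-4, IL-13 and the common gamma chain, 3 of 7 ligands and 7 of 10 receptor chains were detected. Il21 (chr3:37222759-37232636), a T cell cytokine, was at 0.796, 0.977 and 0.660 CPM in RVO, 0.769, 2.02 and 1.80 in control and 0, 0.0781 and 0.0714 in untreated pools. All laser-treated pools were above the untreated pools, and 2 of 3 control pools were above all RVO pools. With 2 counts in the untreated group, the count ratio was 15.3 in RVO (95% counting interval 4.07 to 129, adjusted p = 0.00058) and 28.7 in control eyes (7.75 to 240, adjusted p = 8.0e-05). The opposite strand gene Gm12534 covers 8.9% of its exonic bases, and none of 7 T cell markers had enough counts to be tested. Their sum, mostly Cd4 and Cd8a, was 0.5 to 1.25 CPM in untreated, 0.628 to 1.26 in control and 0.879 to 1.27 in RVO pools, while Cd3e had 3, 1 and 2 counts and Cd3g 2, 4 and 0 in RVO pools and both had none in untreated pools. Il4, the T helper 2 cytokine, had 3.68 ± 0.64 CPM in RVO, 4.51 ± 0.28 in control and 6.26 ± 0.90 in untreated pools and fell by 0.74 in RVO eyes (adjusted p = 0.0094). Il15, a survival factor of lymphocytes, gave -0.46 ± 0.22 (adjusted p = 0.096).

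Of the receptor chains of this group, Il4ra and Il13ra1, which together form the receptor for IL-4 and IL-13 on non-lymphoid cells, rose in both laser-treated groups. Il4ra was at 30.1, 27.4 and 31.6 CPM in RVO, 17.8, 28.4 and 21.5 in control and 5.63, 6.64 and 6.29 in untreated pools. RVO and control pools overlapped at 1 control pool, replicate 2, and all were above the untreated pools. With a log2 fold change of 2.29 ± 0.12 in RVO eyes (adjusted p = 5.0e-06) and 1.88 ± 0.17 in control eyes (adjusted p = 1.4e-06), it had the smallest adjusted p of the interleukin genes in both comparisons. Il13ra1 was at 6.75, 6.71 and 8.49 CPM in RVO, 3.08, 4.65 and 3.26 in control and 2.18, 1.41 and 1.29 in untreated pools, ordered without overlap. It rose by 2.22 ± 0.24 and 1.21 ± 0.26 in RVO and control eyes (adjusted p = 0.00012 and 0.0012). Of their ligands, Il4 was detected and Il13 had no count in any sample. Il9r, the IL-9 receptor of mast cells and lymphocytes, was at 1.15, 1.10 and 0.572 CPM in RVO, 2.04, 1.97 and 1.72 in control and 2.36, 2.66 and 2.36 in untreated pools and fell by 1.33 in RVO eyes (adjusted p = 0.0038). The groups did not overlap. Il2rg, the common gamma chain itself, gave 1.07 ± 0.28 (adjusted p = 0.010) and 1.10 ± 0.40 (adjusted p = 0.027), and 30.5% of its exonic bases are shared with the same-strand gene Gm20489. Il15ra and Il21r, which bind IL-15 and IL-21, gave 0.63 ± 0.26 and 0.71 ± 0.26 in RVO eyes without passing. Il7r, the IL-7 receptor of lymphocytes, had 28, 12 and 15 counts in RVO pools, 1, 9 and 5 in control pools and 4, 3 and 2 in untreated pools and was tested between the laser-treated groups only, with 1.59 ± 0.56 (adjusted p = 0.061).

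Of the 4 genes of the IL-3 and IL-5 group, only Il3ra, the IL-3 binding chain, was detected. It was at 4.36, 5.10 and 5.28 CPM in RVO, 5.56, 5.10 and 5.65 in control and 2.72, 1.88 and 2 in untreated pools. RVO and control pools overlapped and all were above the untreated pools, with log2 fold changes of 1.20 ± 0.21 (adjusted p = 0.0013) and 1.34 ± 0.18 (adjusted p = 3.5e-05).

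The IL-10 group held 5 ligand genes, of which Il22 alone was detected, and 6 receptor genes, of which 4 were. Il10rb, the chain shared by the IL-10, IL-22 and interferon lambda receptors, was at 11.9, 10.6 and 10.6 CPM in RVO, 6.42, 7.12 and 4.64 in control and 4.18, 4.77 and 6.14 in untreated pools. RVO pools stood above the overlapping control and untreated pools, with log2 fold changes of 1.16 ± 0.17 (adjusted p = 0.00054) and 0.27 ± 0.19 (adjusted p = 0.24), while 14.9% of its exonic bases are shared with the same-strand gene Gm21970. Il20ra, a receptor chain for IL-19, IL-20 and IL-24, was at 0.350, 0.764 and 0.220 CPM in RVO, 0.904, 0.707 and 1.34 in control and 2.36, 2.34 and 1.79 in untreated pools. The untreated pools were above all others, and Il20ra fell by 2.24 in RVO eyes and by 1.09 in control eyes (adjusted p = 0.0014 and 0.0041). Il10ra and Il20rb passed in neither comparison.

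The IL-17 receptors were all detected, and 4 of 5 rose in RVO eyes and 3 of 5 in control eyes, whereas of 6 ligand genes Il17d alone was detected. Il17ra, the chain common to this family, was at 22.9, 14.8 and 19.8 CPM in RVO, 9.81, 10.9 and 9.92 in control and 5.18, 4.92 and 7.50 in untreated pools. Its partner for IL-17A and IL-17F, Il17rc, was at 13.1, 11.9 and 13.5 CPM in RVO, 7.15, 9.30 and 7.20 in control and 2.27, 2.27 and 3.29 in untreated pools. Both were ordered without overlap. The log2 fold changes were 1.74 ± 0.22 and 0.80 ± 0.15 for Il17ra and 2.32 ± 0.18 and 1.59 ± 0.19 for Il17rc, in RVO and control eyes, all with adjusted p-values of 0.00055 or less. Il17rd, also known as a brake on FGF signalling, was at 4.87, 5.73 and 5.32 CPM in RVO, 4.07, 3.84 and 4.44 in control and 2.54, 2.58 and 2.93 in untreated pools, with log2 fold changes of 1.01 ± 0.17 and 0.63 ± 0.17. Il17re, which pairs with Il17ra for IL-17C, was at 2.80, 4.29 and 3.69 CPM in RVO, 2.53, 2.63 and 2.72 in control and 1.998, 1.33 and 2.07 in untreated pools, with 1.02 ± 0.26 (adjusted p = 0.0083) in RVO eyes and 0.56 ± 0.22 (adjusted p = 0.039) in control eyes. These groups did not overlap either. The fifth receptor, Il17rb, which binds IL-25, gave -0.31 ± 0.34 and -0.18 ± 0.29. Il17d, an IL-17 relative, had 2.88 ± 0.24 CPM in RVO, 4.10 ± 0.33 in control and 5.48 ± 0.06 in untreated pools and fell by 0.89 in RVO eyes (adjusted p = 0.0017). The adjusted p was 0.029 in control eyes, where Il17d gave -0.40 ± 0.14.

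Il34 and Il16 belong to none of these families. Il34 (chr8:110741829-110805924) was at 4.87, 8.88 and 6.73 CPM in RVO, 10.5, 10.8 and 9.83 in control and 3.27, 5.78 and 4.43 in untreated pools. It was highest in the control pools, which did not overlap with either group, an order seen in 6.02% of all detected genes. The log2 fold change was 1.21 ± 0.16 in control eyes (adjusted p = 3.2e-05) and 0.62 ± 0.28 in RVO eyes (adjusted p = 0.077). Csf1r, its receptor on microglia and macrophages, was added after its values were seen and fell by 1.01 in RVO eyes and by 0.59 in control eyes (adjusted p = 0.0017 and 0.00086). Il16, a chemoattractant of CD4+ cells, gave 0.42 ± 0.43 and 0.16 ± 0.38.

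When RVO pools were set against control laser pools, no interleukin gene passed an adjusted p of 0.01 in edgeR (0 of 45 tested, against 3.34% of all genes), while 23 had an unadjusted p under 0.05, which 47.1% of all genes also had. At an adjusted p under 0.05, 12 were higher in RVO eyes (Il1a, Il1b, Il1f9, Il1rn, Il1r2, Il1rap, Il6ra, Il6st, Il10rb, Il13ra1, Il17ra, Il17rc) and 4 lower (Il1rapl1, Il9r, Il12a, Il17d), against 17.5% and 17.1% of all genes. The largest increases were those of the IL-1 family, with log2 fold changes of 2.12 ± 0.44 for Il1rn, 1.93 ± 0.55 for Il1f9, 1.87 ± 0.50 for Il1r2 and 1.79 ± 0.50 for Il1b, and adjusted p-values of 0.014 to 0.032. The smallest adjusted p was 0.011 for Il1rap (1.16 ± 0.20), and the most negative value was that of Il12a (-1.74 ± 0.43, adjusted p = 0.021). Il11, Il27, Il4ra and Il3ra, which rose against untreated eyes, gave 0.84 ± 0.46, 0.12 ± 0.22, 0.40 ± 0.16 and -0.15 ± 0.14, none with an adjusted p under 0.05. Il21 and Il34 were lower in the mean in RVO than in control eyes, by -0.90 ± 0.37 (adjusted p = 0.098) and -0.61 ± 0.21 (adjusted p = 0.059).

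**Figure D3:**
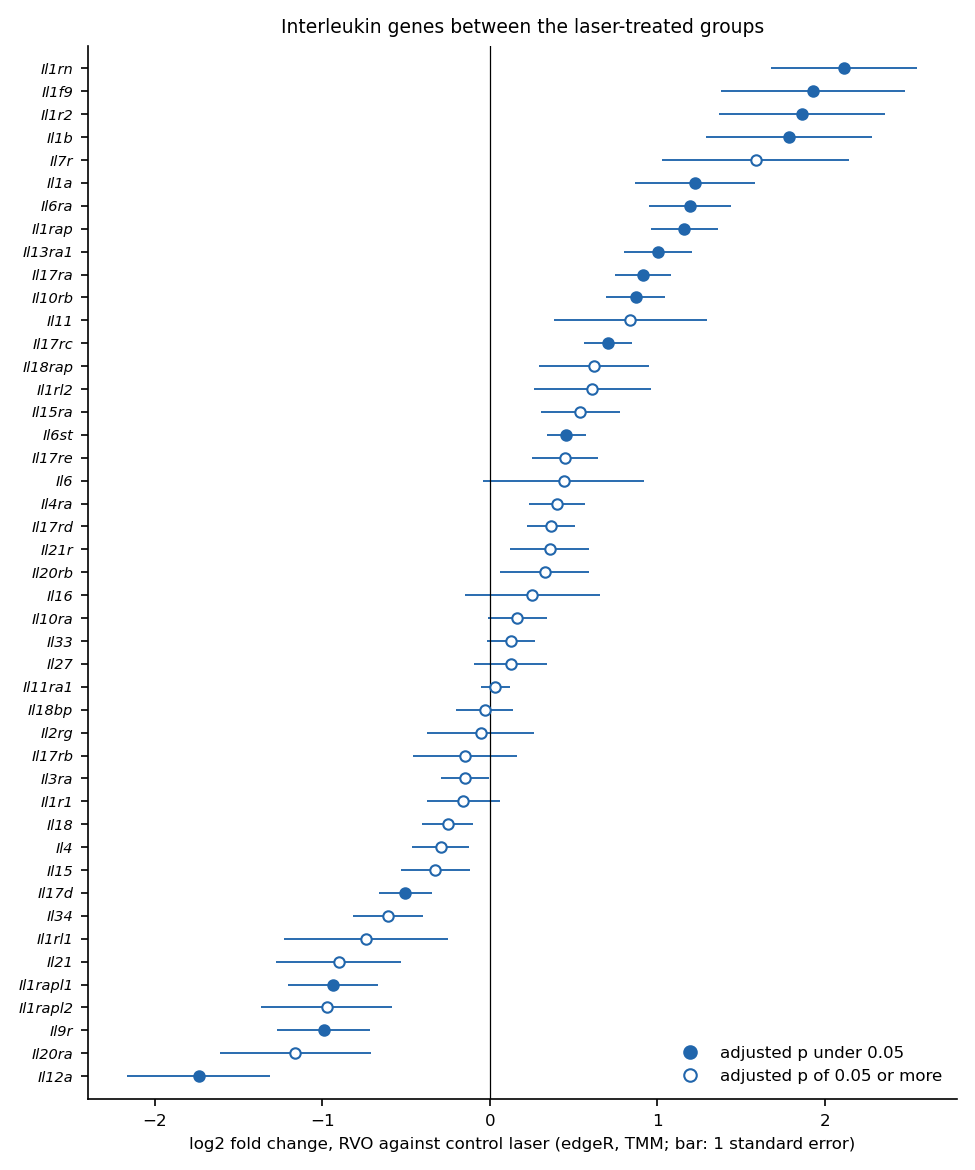
Log2 fold change (x axis) of 45 interleukin genes (y axis, sorted) between RVO and control laser-treated eyes, with bars of 1 standard error on each side. Filled points, with an adjusted p under 0.05, are 12 genes on the right, led by Il1rn with 2.12, and 4 on the left, led by Il12a with -1.74.

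The number of genes that passed depended on RVO replicate 2. Of the 12 genes that were higher at an adjusted p under 0.05, 11 had their lowest RVO value in that pool. Of the 4 lower genes, 2 had their highest RVO value there. The same was not counted over all genes, so it is not shown to be particular to interleukin genes. Without RVO replicate 2, 12 genes were higher and 5 lower at an adjusted p under 0.01. Of all genes, 17.1% and 19.3% were called in that fit, against 2.7% and 0.634% with all pools. Il1rap then gave 1.34 (adjusted p = 8.7e-06) and Il1rn 2.43 (adjusted p = 6.6e-05). DESeq2 on all pools called 11 higher and 0 lower (11.0% and 12.7% of all genes). The summed neutrophil markers of the 3 RVO pools were 99.9, 46.9 and 104.5 CPM, lowest in the same replicate, and the summed monocyte and macrophage markers were 126.5, 116.7 and 140.0 CPM. Their part in the difference was not tested.

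Set in order over the 3 groups, 11 of the 46 detected genes, or 23.9%, increased from untreated to control to RVO pools without any overlap, and 14.1% of all detected genes did so. These were Il1b, Il1f9, Il1rn, Il1r2, Il6ra, Il6st, Il13ra1, Il17ra, Il17rc, Il17rd and Il17re. Of them, Il1b, Il1f9, Il1rn and Il1r2 had 10 or more counts in laser-treated pools only. They were detected through the groups where they are high, so the opposite order was closed to them in advance. How many of all detected genes are of this kind was not counted. The opposite order was found for 4 (8.70%, against 12.4% of all detected genes), namely Il1rapl1, Il1rapl2, Il9r and Il17d.

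The genes that process or carry interleukin signals were followed in 4 lists. Of all tested genes, 27.4% were higher and 24.6% lower in RVO eyes, and 27.2% and 25.2% in control eyes. In the list of IL-1 receptor signalling, 9 of 17 genes were higher and 4 lower in RVO eyes, and 8 and 4 in control eyes. The share of lower genes, 23.5% in both, was near that of all genes. The adaptor Myd88 rose by 2.34 ± 0.15 and 1.74 ± 0.13, its companion Tirap by 1.497 ± 0.12 and 0.79 ± 0.17 and the kinase Irak1 by 1.02 ± 0.10 and 0.52 ± 0.08 in RVO and control eyes, while the TAK1 binding protein gene Tab3 fell by 0.86 and by 0.80. In the list of IL-1 processing and the inflammasome, 5 of 8 tested genes were higher and 1 lower in RVO eyes, and 2 of 5 higher in control eyes. The pore-forming Gsdmd rose by 2.42 ± 0.26 and 1.86 ± 0.30 and Casp8 by 2.19 ± 0.29 and 0.89 ± 0.22. Casp4, an inflammatory caspase, had 1.10 ± 0.31 CPM (SD) in RVO, 0.311 ± 0.13 in control and 0.0521 ± 0.09 in untreated pools, and Mefv, which encodes pyrin, had 1.15 ± 0.34 and 0.344 ± 0.19 CPM and no count in untreated pools. Casp1, which cleaves pro-IL-1 beta, gave 0.88 ± 0.45 and 0.80 ± 0.41 with adjusted p-values of 0.11 in both.

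Of the JAK, STAT and SOCS genes, 13 of 21 tested were higher and 5 lower in RVO eyes and 14 and 5 in control eyes. Here too the share of lower genes, 23.8% in both, was near that of all genes. The feedback inhibitor Socs3 was at 169 ± 25.2 CPM (SD) in RVO, 71.1 ± 20.5 in control and 3.00 ± 0.21 in untreated pools and had the smallest adjusted p of the 4 lists in RVO eyes (log2 fold change 5.85 ± 0.16, adjusted p = 9.6e-07). Stat3, the factor downstream of GP130, rose by 2.86 ± 0.10 and 2.11 ± 0.10, Jak3, the kinase of the common gamma chain, by 4.62 ± 0.21 and 3.85 ± 0.20 and Cish, a STAT5 target, by 2.43 ± 0.16 and 1.62 ± 0.13. In the list of partner chains and related ligands, 5 of 9 genes were higher and 1 lower in RVO eyes and 6 and 1 in control eyes. The GP130 ligand gene Clcf1 rose by 4.96 ± 0.24 in RVO eyes and by 3.40 ± 0.18 in control eyes, the oncostatin M receptor Osmr by 2.65 ± 0.17 and 1.92 ± 0.15 and Crlf2, which binds TSLP, by 1.80 ± 0.13 and 1.29 ± 0.11. Csf2rb2, which encodes the beta chain of the mouse IL-3 receptor and is a near-identical copy of Csf2rb, so that reads may be split between them, rose by 5.45 ± 0.42 (RVO) and 4.47 ± 0.43 (control) from 1 to 2 counts per untreated pool. Between RVO and control eyes, 3 of 55 tested genes of these lists passed an adjusted p of 0.01, against 3.34% of all genes, all higher in RVO eyes: Clcf1 (1.55), Stat6, the factor of the IL-4 receptor (0.68), and Nfkbiz, a nuclear IkB protein induced by IL-1 (0.57). None of the 3 passed with a replicate block or when any sample other than RVO replicate 2 was left out. Stat6, Nfkbiz and Casp1 belong to the lists but were singled out after their values were seen. The medians of the 4 lists against untreated eyes were 0.70, 2.31, 0.65 and 1.80 in RVO eyes and 0.34, 0.81, 0.54 and 1.504 in control eyes, in the order in which the lists were given, next to 0.01 over all genes. They were the same with Mefv, at 0 in untreated pools, set to its lower bound. That bound lies above the median of its list in RVO eyes, and Mefv was not tested in control eyes, so no median could move.

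**Figure D4:**
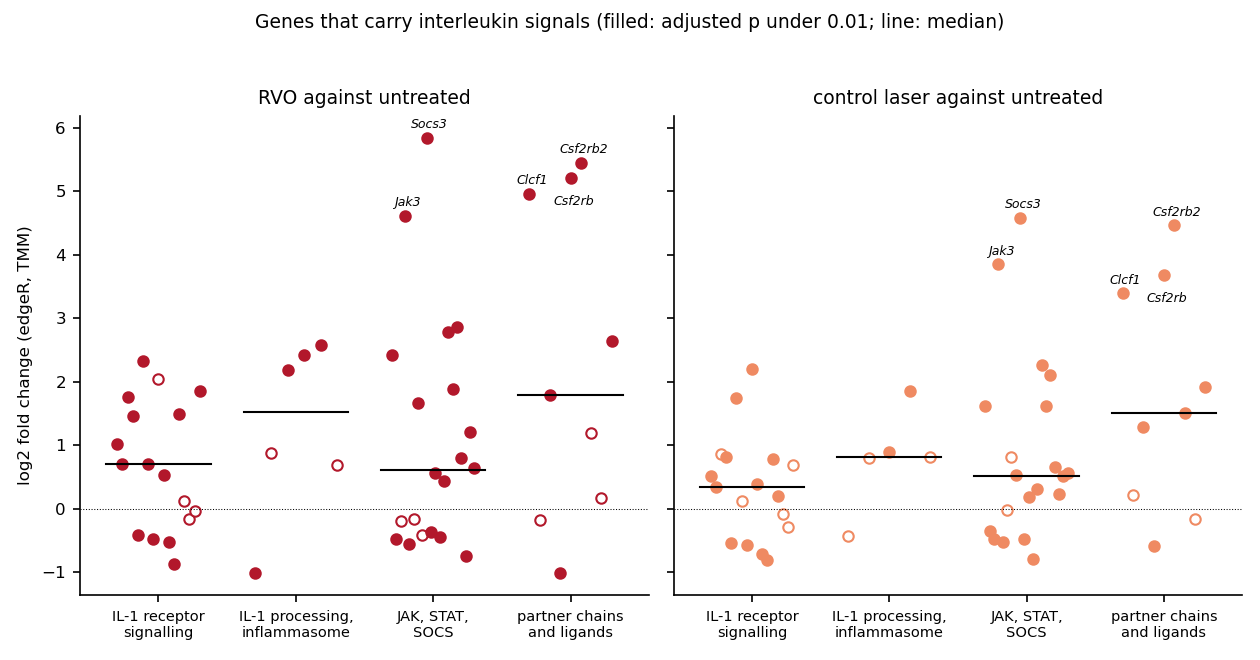
Log2 fold change (y axis) of single genes of 4 lists that process or carry interleukin signals in RVO (left) and control laser-treated eyes (right) against untreated eyes, without genes of 3 or fewer counts in the untreated samples together. Filled points have an adjusted p under 0.01 and lines mark medians of the genes drawn. Socs3 is the highest gene drawn in both, with 5.85 in RVO and 4.59 in control eyes.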

How the data were processed

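Retinal RNA of 9 pooled samples was sequenced from poly-A selected, strand-marked libraries. The authors mapped the reads with STAR 2.5.2b to the GRCm38 genome with the Gencode vM11 annotation, counted them per gene with featureCounts (Subread 1.5.1) and deposited raw counts, 1 column per sample. The strand and multi-mapping settings of the counting are not given in the sources used here, so reads of overlapping genes or near-identical copies may be shared or lost. Spike-in names (92, all at 0 counts) were left out.

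Each pair of groups was fitted alone over the whole table in edgeR 4.0.16 (R 4.3.3): TMM factors, filterByExpr, quasi-likelihood test, Benjamini-Hochberg adjustment over all genes tested, threshold 0.01 as in the study. Standard errors are the log2 fold change divided by the root of F. In a group with 0 counts, 3 counts over the group served as the floor. With 1 to 3 counts, the ratio of group counts with its 95% interval is given. Intervals and floors cover counting error only. Genes were placed with GENCODE vM21, and 66 of the 83 had a RefSeq promoter window. Values in every sample are given for detected genes called in some comparison with a log2 fold change of at least 1, and for Il1b, Il6 and Il1rn. Up to 4 genes per pathway list are named by the smallest adjusted p in RVO against untreated eyes, and 1 gene of these lists is not reported here. The genes, lists and tests were chosen with earlier results of these data known. Alternatives were DESeq2 1.42.0, library size scaling, no filter, 1 fit of all 9 samples, a replicate block, a threshold of 0.05 and leaving out each sample. Applying them to the pathway lists was decided after seeing the data. The fit was tested on simulated counts for control against untreated eyes only. That simulation had fewer changed genes than these data show against untreated eyes and less spread than the RVO comparisons, so it does not cover those settings.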

Additional observations from a re-analysis of the deposited data

Results flagged for a closer look

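Il1rap, the accessory chain of the IL-1, IL-33 and IL-36 receptors, was higher in RVO pools than in untreated pools, while control pools lay just below them. It was singled out after its values were seen. Its mean was 33.8 CPM in RVO pools, 15.2 in control laser-treated pools and 17.7 in untreated pools. Every RVO pool lay above and every control pool below the untreated pools. The highest control pool, at 16.2 CPM, was close to the lowest untreated pool, at 16.3 CPM. Control eyes did not pass against untreated eyes (log2 fold change -0.20 ± 0.10, edgeR adjusted p = 0.10). The difference between the treatments is the RVO against control comparison, with a log2 fold change of 1.16 ± 0.20 (SE, n = 3 pools each, edgeR adjusted p = 0.011), which missed the threshold of 0.01. Without RVO replicate 2 it was 1.34 (adjusted p = 8.7e-06), with DESeq2 1.15 (adjusted p = 2.5e-06) and in a fit of all 9 samples 1.16 (adjusted p = 0.0015). With a replicate block it was 1.13 (adjusted p = 0.031), and leaving out any other sample gave 0.99 to 1.21, with adjusted p-values of 0.023 to 0.058.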

How the results depend on the processing

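The counts of interleukin genes called against untreated eyes stayed within 1.5 times of 26 (RVO) and 19 (control) in all alternatives, leave-one-out included (19 to 31 and 17 to 20), and detected genes numbered 40 to 52. The count between RVO and control eyes did not: it was 0, but 1 with library size scaling, 11 with DESeq2, 10 without a filter, 11 with all 9 samples in 1 fit, 16 at an adjusted p under 0.05, and 0 to 17 with 1 sample left out, where 17 came without RVO replicate 2 and all other omissions gave 0. The pathway lists had 3 calls there, but 7, 24, 19, 20 and 30 under the same settings, 0 with a replicate block and 0 to 29 with 1 sample left out (29 without RVO replicate 2). The cause was not tested. The difference in the log2 ratio of Il1rn to Il1b was not stable in sign: leaving out 1 sample gave -0.069 to 1.02 for RVO against untreated, -0.377 to 0.788 for control against untreated and -0.165 to 0.865 for RVO against control, with negative values also of -0.297 without untreated replicate 2 and -0.014 without control replicate 3. Il27 ranged from -0.001 (without control replicate 1) to 0.218 between RVO and control eyes. Of the alternatives for named genes 677 kept direction and side, 34 were weaker, 47 stronger and 1, that of Il27, changed sign. RVO and control pools came from fellow eyes, but whether equal replicate numbers mark the same mice is not given in the sources used here. Deviations of equal numbers correlated by -0.131, -0.148 and 0.071, so no pairing was used, which does not show that the pools are unpaired. A fit with the replicate block gave 23, 20 and 0 calls of interleukin genes in the 3 comparisons. Low counts limit Il6, Il22, Il7r and the 37 undetected genes.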
